A study of Mus musculus with 4 samples.

Results

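Nes, Hopx, Tfap2c, Eomes, Mex3a, Mki67, Dcx, Igfbpl1 and Draxin are 9 genes of neural stem cells, dividing progenitors and newborn neurons, cells that make up a small part of the adult hippocampus. They were chosen by name, as genes of rare cells, and they are 9 of the 21938 protein-coding genes of GENCODE M21 on build mm10. For each gene, every deposited peak in the gene body or within 50 kb of it was taken, and the gene was described as marked at a promoter, marked in the body, with a peak nearby, or without a peak.

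Acetylation of histone H3 at lysine 27 (H3K27ac) was mapped by ChIP-seq in tissue labelled as a layer of the hippocampus, from male adult mice of strain B6CASTF1/J aged 2 months, a cross of C57BL/6 and CAST. The 4 samples formed 1 group: pool C, numbered biological replicate 1, and pool D, numbered 2, with 7 biosamples and 2 technical replicates in each. No animal was treated and no other group was compared, so the values below describe where the mark was found, and no test between groups was made. The pool lists joined the technical replicates, so each pool gives 1 value per region.

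H3K27ac lies at active promoters and enhancers. New granule neurons arise throughout adult life in the dentate gyrus of the mouse: radial glia-like stem cells divide into intermediate progenitors, these into neuroblasts, and neuroblasts mature into granule neurons. Nes and Hopx are used to mark the stem cells, Eomes the intermediate progenitors, Mki67 cells in cycle, and Dcx and Igfbpl1 the neuroblasts.

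Of the 9 genes, 4 (Nes, Hopx, Mex3a and Dcx) had a replicated peak at a promoter, that is, no more than 1 kb from any transcription start site (TSS) of the gene, against a background of 61.6% of all coding genes. The same 4 were marked in the pool C list (background 62.3%) and in the pool D list (background 57.9%). Igfbpl1 and Draxin had a peak in the gene body and none at a promoter, which brought the genes with a peak in the body to 6 (background 65.1%). The same 6 were found in pool C (background 65.8%) and pool D (background 60.4%). Eomes and Mki67 had no peak in the body and at least 1 within 50 kb, which brought the genes with a peak in the body or nearby to 8 (background 82.3% in the replicated list, 82.6% in pool C and 79.2% in pool D). Tfap2c had none in any list. These are counts of 9 genes beside the share of all coding genes, with no test between them.

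**Figure D1:**
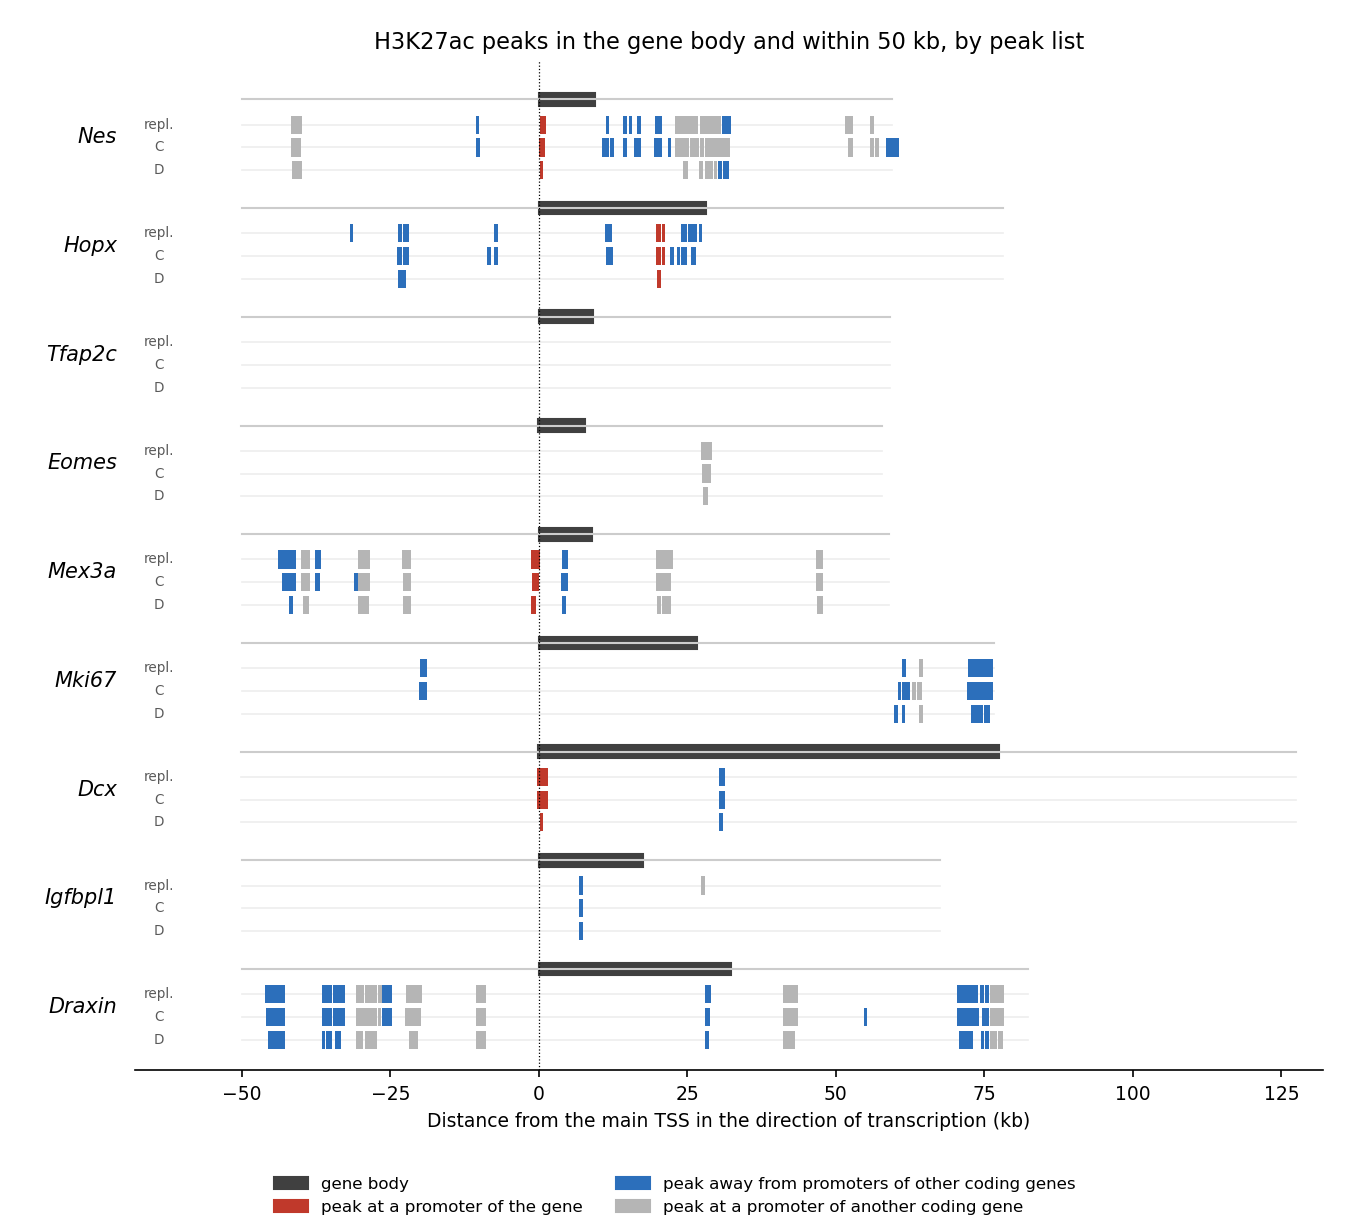
H3K27ac peaks in the body and within 50 kb of each gene, in the replicated list, the pool C list and the pool D list; the x axis is the distance from the main TSS in kb, along the direction of transcription. Red peaks lie at a promoter of the gene itself (Nes, Hopx, Mex3a and Dcx), blue peaks lie away from the promoters of other coding genes, and grey peaks lie at those promoters; Tfap2c has none.

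The replicated list held 88930 peaks, the pool C list 94836 and the pool D list 63623. The windows of the 9 genes held 62 replicated peaks, 67 pool C peaks and 47 pool D peaks. Of the 62, 61 had the same start, end and signal in a list called on both pools together, so the replicated signal is not an average of the pool signals. The authors gave each peak a signal without stating how it was scaled, so it is read by rank within a list. Read totals were not in the files used, so the depth is unknown, and a region without a peak is one where none was detected at this depth. The tissue holds many cell types, and a mark carried by few cells cannot be told apart from a weak mark in many.

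Nes, which encodes the intermediate filament protein nestin, was marked weakly at its own start. In the replicated list the strongest promoter peaks of its neighbours Isg20l2, Rrnad1 and Bcan had higher signals, and those of Hapln2 had lower ones. In pool C, Hapln2 promoter peaks of 5.02 and 5.07 were above that of Nes, and another of 4.22 was below it. The pool D list held no Hapln2 promoter peak in the Nes window. Nes is at chr3:87971078-87980451 on the plus strand. Its promoter peak, at chr3:87971215-87972204, had a signal of 4.97 in the replicated list, 4.39 in pool C and 3.99 in pool D. The peak began after the main TSS, its summit lay at 0.4 kb in the coding sequence of exon 1, and it was 990 bp wide. Its signal was higher than that of 8.1% of coding genes with a promoter peak in the replicated list, 4.2% in pool C and 4.0% in pool D, so it was among the weaker promoter peaks in every list. The median replicated promoter signal of marked coding genes was 13.76.

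Intron 2 of Nes is known in rodents as the site of an enhancer active in neural progenitors. It spans 1685 bp at chr3:87973117-87974801 and held 0 peaks in the replicated, pool C and pool D lists. No other intron or exon of Nes downstream of intron 1 held a peak. The strongest peak near Nes that was at no other gene's promoter lay at 11.6 kb from the main TSS, past the gene's end, with a replicated signal of 6.71. It had a signal of 9.64 in pool C and was absent from the pool D list.

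The window of Nes held 14 replicated peaks, 17 in pool C and 9 in pool D, beside a median of 6 replicated peaks over all coding genes. Of the 14, 6 lay at promoters of other coding genes: Isg20l2 and Rrnad1, which share a peak of signal 14.2; Bcan, whose strongest promoter peak had 15.7; and Hapln2, whose peaks had 4.45 and 4.40. Bcan and Hapln2 encode proteins of the brain's extracellular matrix, brevican and a link protein. Peaks covered 16.08% of the Nes window, more than in 84.3% of coding genes, and most of them lay on the side of Bcan. The length covered in the window is therefore no measure of the mark at Nes itself.

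Hopx encodes a small homeodomain protein that does not bind DNA and is a marker of quiescent stem cells of the dentate gyrus. Its mark lay at its downstream promoter and not at its main one. Hopx, at chr5:77086988-77115121 on the minus strand, has a main TSS at the gene's start and a second group of TSSs at 19.8 kb downstream. No peak in any list lay within 1 kb of the main TSS. The strongest Hopx peak, at chr5:77094572-77095389, covered a downstream TSS and had a signal of 7.75 in the replicated list, 10.5 in pool C and 3.25 in pool D. That was higher than in 19.5% of marked coding genes in the replicated list, 25.7% in pool C and 1.3% in pool D, the widest difference in rank between pools among the 4 genes. The peak also lies within 1 kb of a TSS of Hopxos, a non-coding gene on the other strand, and ChIP-seq gives no strand, so the mark cannot be assigned to either gene.

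With the main TSS alone, 3 of the 9 genes had a promoter peak, without Hopx, against a background of 58.9%. A promoter peak at some TSS and none at the main one was found in 582 of 11617 coding genes with TSSs over 2 kb apart (5.01%). The 2 Hopx promoters are shown from the GRCm38 genome, 250 bases before to 50 bases after the TSS, 5′ to 3′ on the gene's strand, because they differ in sequence as well as in the mark. Capitals are CG dinucleotides. The unmarked main promoter (chr5:77115072-77115371) holds 8 and the marked downstream promoter (chr5:77095228-77095527) holds 20.
Hopx main promoter: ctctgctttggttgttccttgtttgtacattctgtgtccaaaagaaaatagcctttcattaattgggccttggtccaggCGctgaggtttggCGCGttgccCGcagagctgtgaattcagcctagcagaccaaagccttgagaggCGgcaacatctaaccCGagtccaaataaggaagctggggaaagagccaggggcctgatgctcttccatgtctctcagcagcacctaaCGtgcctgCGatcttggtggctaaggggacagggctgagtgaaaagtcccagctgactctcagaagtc
Hopx downstream promoter: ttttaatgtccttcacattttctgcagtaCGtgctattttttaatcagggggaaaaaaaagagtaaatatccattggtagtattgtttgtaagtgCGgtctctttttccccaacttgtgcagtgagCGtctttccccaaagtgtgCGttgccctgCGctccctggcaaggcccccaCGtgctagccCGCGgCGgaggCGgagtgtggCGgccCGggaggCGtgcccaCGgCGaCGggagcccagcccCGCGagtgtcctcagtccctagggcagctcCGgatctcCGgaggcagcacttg

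Hopx had 7 replicated peaks in its body, 7 in pool C and 1 in pool D. Beside the promoter pair at 20.2 and 20.9 kb, they lay in intron 1 at 11.7 kb (signal 4.10) and in intron 2 at 24.5 to 27.3 kb (signals 2.60 to 4.12). In the pool D list the body held the promoter peak alone. Upstream, 2 adjoining peaks at -22.7 and -23.3 kb were present in every list, with signals of 5.20 and 4.91 in the replicated list, 4.86 and 5.41 in pool C, and 4.61 and 4.20 in pool D. They lie between genes, and in pool D both ranked above the Hopx promoter peak. None of the 11 replicated peaks in the Hopx window was at another coding gene's promoter.

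The Hopx peak at -22.7 kb is shown by the 300 bases around its replicated summit (chr5:77137703-77138002, minus strand), as an example of an upstream region marked in both pools. The window of the adjoining peak at -23.3 kb, also marked in both pools, held none of the 6 motifs searched. Capitals mark CAGCTG, an E-box, the letters read by many basic helix-loop-helix factors, searched on both strands.
Hopx upstream peak: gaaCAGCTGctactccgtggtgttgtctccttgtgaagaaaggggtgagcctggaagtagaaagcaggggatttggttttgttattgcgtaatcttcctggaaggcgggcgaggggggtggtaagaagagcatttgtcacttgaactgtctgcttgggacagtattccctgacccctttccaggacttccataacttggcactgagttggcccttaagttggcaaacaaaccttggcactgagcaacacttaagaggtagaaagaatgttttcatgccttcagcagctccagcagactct

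Tfap2c encodes the transcription factor AP-2 gamma, found in dividing progenitors of the dentate gyrus. It was the one gene of the 9 with no peak in its body or within 50 kb in any list. Tfap2c lies at chr2:172549593-172558622 on the plus strand. The nearest replicated peak to any of its TSSs lay 108.5 kb away, at the promoter of Rtf2, with a signal of 10.5. On the downstream side the nearest lay 272.8 kb past the gene's end, with a signal of 2.66. Of all coding genes, 87.3% had a peak closer to a TSS than Tfap2c, and 17.7% shared the state of no peak in the body or within 50 kb.

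Eomes, the T-box transcription factor also called Tbr2, marks intermediate progenitors. It carried no mark on its body in any list. Eomes lies at chr9:118478212-118486132 on the plus strand, and its window held 1 peak in each list, at the promoter of the neighbouring gene Golga4. That peak, at chr9:118505671-118507417, had a signal of 15.9 in the replicated list, 18.6 in pool C and 10.7 in pool D. It lay 28.1 kb from the main TSS of Eomes and 19.5 kb past the gene's end. Eomes is thus counted as near a peak through its neighbour, and no peak of its own region was detected.

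Mex3a encodes an RNA-binding protein and is found in progenitor cells. It had the strongest promoter mark of the 9 genes in the replicated and pool C lists, and in pool D as well. Mex3a lies at chr3:88532395-88541396 on the plus strand, and its promoter peak at chr3:88531141-88532503 had a signal of 10.5 in the replicated list, 12.7 in pool C and 6.22 in pool D. The signal was higher than in 32.9% of marked coding genes in the replicated list, 35.2% in pool C and 18.4% in pool D, which is still below the median. The peak was 1363 bp wide with its summit at -0.7 kb.

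A second peak of Mex3a lay at 4.2 kb in the coding sequence of exon 2, with a signal of 5.32 in the replicated list. It also lies within 1 kb of a TSS of the microRNA gene Mir1905. In pool C it was split into 2 peaks of 5.32 and 5.89, and in pool D it had a signal of 4.84. Of 11 replicated peaks in the Mex3a window, 5 lay at promoters of other coding genes, the strongest of 26.2 between Lamtor2 and Ubqln4. Lmna, which encodes lamin A and C, had promoter peaks of 6.91, 12.8 and 6.51, and Ssr2 had one of 11.7. Peaks covered 13.77% of the window.

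Mki67 encodes Ki-67, a nuclear protein of cells in cycle. Its body and promoter were without a peak in every list. The gene lies at chr7:135689784-135716361 on the minus strand. Its nearest replicated peaks lay upstream at -19.1 and -19.9 kb with low signals of 2.66 and 3.21. Pool C held both, the second with a signal of 5.46, and pool D neither, so that in pool D the nearest peak was 54.5 kb from a TSS. The other 3 replicated peaks of the window lay in the next gene, Ptpre, a receptor-type tyrosine phosphatase gene, at 61.4, 64.3 and 74.1 kb. The widest, of 4268 bp with a signal of 8.21, was present in every list and was split into 3 peaks in pool D.

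The Mki67 promoter (chr7:135716312-135716611, minus strand) holds 35 CG in 300 bases, in capitals, and is shown as an example of the CG-dense promoters without a peak.
Mki67 promoter: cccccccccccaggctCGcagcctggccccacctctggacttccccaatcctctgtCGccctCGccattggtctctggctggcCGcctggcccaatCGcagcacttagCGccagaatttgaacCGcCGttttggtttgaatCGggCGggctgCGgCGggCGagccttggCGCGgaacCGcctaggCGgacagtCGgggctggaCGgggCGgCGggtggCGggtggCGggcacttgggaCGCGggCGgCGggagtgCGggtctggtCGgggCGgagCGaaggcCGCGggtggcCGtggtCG

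Dcx, on the X chromosome, encodes doublecortin, a microtubule-associated protein of migrating neuroblasts and young neurons. It had 2 replicated peaks, both inside the gene and both found in each pool. Dcx spans chrX:143855842-143933311 on the minus strand, 77.5 kb. The promoter peak at chrX:143931705-143933561 had a signal of 6.01 in the replicated list, 6.77 in pool C and 4.40 in pool D. It covered the main TSS in the replicated and pool C lists, with its summit in intron 1. The intron 3 peak at chrX:143901958-143902836, at 30.8 kb, had a signal of 5.55 in the replicated list, 6.36 in pool C and 3.99 in pool D. The 2 peaks were close in signal within each list.

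The Dcx promoter signal was higher than in 12.5% of marked coding genes in the replicated list, 12.2% in pool C and 6.2% in pool D. Male cells carry 1 X chromosome, and the share of X-linked coding genes with a promoter peak was 43.9% in the replicated list, 45.3% in pool C and 39.3% in pool D. Among the 416 marked X-linked genes the median promoter signal was 10.53, and 15.6% had a lower one than Dcx. Dcx was thus low in rank among X-linked genes too. The median X-linked gene had 1 peak in its window, and Dcx had 2 in a window of 177.5 kb. Of X-linked genes, 51.2% had fewer peaks in the window than Dcx, and 57.8% had a lower share of it covered.

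The Dcx promoter (chrX:143933170-143933469, minus strand) holds 3 CG, in capitals, and is shown as the marked promoter with the fewest of the main promoters.
Dcx promoter: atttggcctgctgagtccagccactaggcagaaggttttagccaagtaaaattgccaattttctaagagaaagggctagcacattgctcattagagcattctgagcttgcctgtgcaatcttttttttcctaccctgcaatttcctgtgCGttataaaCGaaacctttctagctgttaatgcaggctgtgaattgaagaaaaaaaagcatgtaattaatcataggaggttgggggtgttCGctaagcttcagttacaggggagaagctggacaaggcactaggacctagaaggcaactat
The Dcx intron 3 peak is shown by the 300 bases around its summit (chrX:143902237-143902536), with CAGCTG in capitals.
Dcx intron 3 peak: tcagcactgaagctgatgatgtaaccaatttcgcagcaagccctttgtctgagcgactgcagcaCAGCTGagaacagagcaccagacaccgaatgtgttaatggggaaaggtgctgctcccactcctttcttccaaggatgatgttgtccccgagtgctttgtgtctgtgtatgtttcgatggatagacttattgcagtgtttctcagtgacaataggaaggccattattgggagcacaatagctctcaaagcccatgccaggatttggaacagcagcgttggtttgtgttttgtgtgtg

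Igfbpl1 encodes a secreted protein related to the insulin-like growth factor binding proteins. It had 1 peak inside the gene and no promoter peak. Igfbpl1 lies at chr4:45809468-45826923 on the minus strand. The peak, at chr4:45819521-45820147 in intron 1, lay 7.0 kb from the main TSS and was 627 bp wide. Its signal was 5.32 in the replicated list, 6.15 in pool C and 3.78 in pool D, and the region was marked in both pools. A peak inside the body of a gene with no promoter peak was found in 4.47% of coding genes. The other replicated peak of the window, at the promoter of Aldh1b1, had a signal of 4.51 and touched no peak of either pool list.

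The 300 bases around the intron 1 summit (chr4:45819756-45820055, minus strand) are shown as the marked region of a gene with no promoter peak. They held none of the 6 motifs searched and are in lower case throughout.
Igfbpl1 intron 1 peak: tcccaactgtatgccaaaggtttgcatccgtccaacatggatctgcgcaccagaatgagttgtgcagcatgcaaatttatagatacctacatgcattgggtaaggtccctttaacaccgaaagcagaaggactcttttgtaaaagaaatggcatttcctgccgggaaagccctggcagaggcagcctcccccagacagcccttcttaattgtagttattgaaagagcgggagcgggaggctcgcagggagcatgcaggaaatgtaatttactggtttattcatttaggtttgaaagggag

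Draxin encodes a secreted axon guidance protein. It had 1 peak in its body, at its far end, and none at its promoter. Draxin lies at chr4:148098437-148130698 on the minus strand. The peak, at chr4:148101763-148102770 in exon 7, had its summit at 28.3 kb in the 3′ untranslated region, with a signal of 4.70 in the replicated list, 5.02 in pool C and 3.84 in pool D. The nearest peak to the Draxin TSS lay 8.9 kb away at the promoter of Mad2l2, which had a signal of 16.0.

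The Draxin window held 16 replicated peaks, 15 in pool C and 16 in pool D. Replicated peaks covered 21.1% of its length, the highest share of the 9 windows and more than in 91.3% of coding genes. Of the 16, 7 lay at promoters of coding neighbours. The Fbxo6 promoter peak had a signal of 27.6, the strongest one between Fbxo2 and Fbxo44 had 19.0 and that of Agtrap had 8.51. Away from promoters, the strongest was at -35.6 kb in Fbxo2 (11.7). A gene without a mark at its start thus lay in the window with the highest peak coverage.

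**Figure D2:**
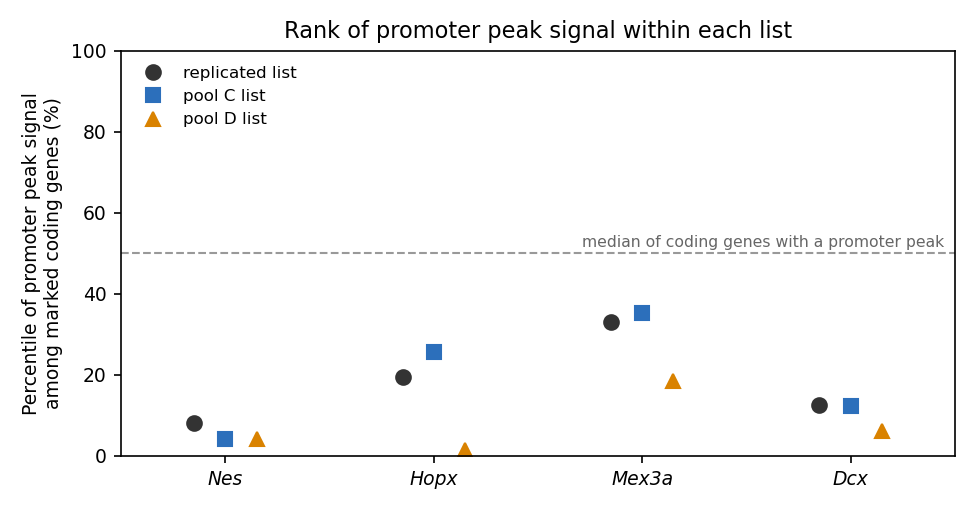
Rank of the promoter peak signal of Nes, Hopx, Mex3a and Dcx, as the percentage of marked coding genes with a lower signal, in the replicated list, the pool C list and the pool D list. All 12 points lie below the median, and Mex3a is highest in the replicated list (32.9%).

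The plot of promoter signal rank shows that each of the 4 marked genes ranked below the median of marked coding genes in the replicated, pool C and pool D lists. Mex3a ranked highest of the 4 in the replicated list and Nes lowest. In pool D the order differed, with Hopx lowest. With 2 pools and unequal numbers of peaks, the order of Nes, Hopx and Dcx is a description of these lists.

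Promoters dense in CG dinucleotides are acetylated in most tissues, so each gene was set beside coding genes of like promoter sequence. The ratio of observed to expected CG within 500 bp of the main TSS was 0.6 or more in 7 of the 9 genes: Igfbpl1 (0.924), Mki67 (0.84), Draxin (0.782), Nes (0.745), Tfap2c (0.689), Mex3a (0.653) and Eomes (0.633). Of these 7, Nes and Mex3a had a promoter peak, against 91.8% of the 10438 coding genes at or above that ratio. The other 2 genes, Hopx (0.489) and Dcx (0.285), both had a peak at some TSS, against 34.2% of the 11500 coding genes below it. The ratio of Hopx is that of its main promoter, which had no peak. Its marked downstream promoter had a ratio of 0.784, so Dcx alone had a peak at a main promoter below 0.6. These are counts over 9 genes chosen by name, and they were not tested against all coding genes.

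**Figure D3:**
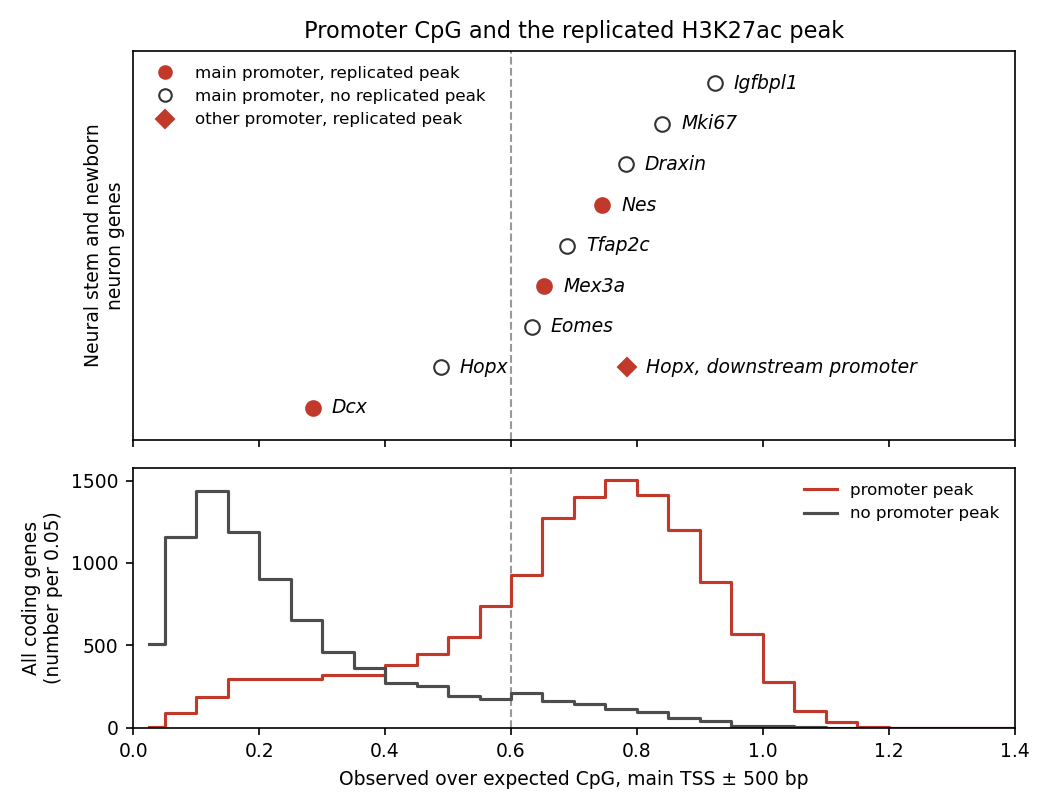
Top: ratio of observed to expected CG within 500 bp of the main TSS for the 9 genes. Points are filled where a replicated peak lies within 1 kb of the main promoter, and the Hopx downstream promoter is a diamond. Bottom: the same ratio for all coding genes with and without a peak at any TSS, as the number of genes per 0.05. The dashed line is 0.6, and 5 of the 7 genes to its right have no promoter peak.

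Coding genes with a ratio of 0.6 or more and no promoter peak numbered 851. Of these, 19.5% had a peak in the body, 51.4% had one within 50 kb and 29.1% had neither. The 5 such genes here were spread over all 3 states: Igfbpl1 and Draxin in the body, Eomes and Mki67 nearby, and Tfap2c with neither.

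Of the 62 replicated peaks, 21 lay at promoters of other coding genes and 41 did not. Of these 41, 14 lay in the body of one of the 9 genes, 15 inside other coding genes and 12 between coding genes. The median signal was 9.52 for the 21 at other promoters and 4.16 for the 41 away from them, and the median of the whole replicated list was 4.28. The peaks at neighbouring promoters had the higher median. At the 50 kb edge, the last replicated peaks inside were a Hapln2 promoter peak near Nes (46.4 kb past the gene, signal 4.40) and a Ptpre peak near Mki67 (45.6 kb, 8.21). The first ones outside were the Thegl promoter peak near Hopx (50.1 kb, 3.10) and a peak near Nes (50.3 kb, 6.36).

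At least 1 base of a pool D peak touched 36 of the 67 pool C peaks (53.7%), and a pool C peak touched 46 of the 47 pool D peaks (97.9%). The 1 pool D peak with no pool C partner lay in the Mki67 window at 60.1 kb, inside Ptpre. Of the 62 replicated peaks, 36 touched a peak of both pool lists, 20 touched one of pool C alone and 6 touched neither. The 6 were 3 of Hopx, at -31.6, 25.3 and 27.3 kb, and 1 each of Nes at 15.5 kb, Mex3a at -43.6 kb and Igfbpl1 at the Aldh1b1 promoter, with signals of at most 4.51. All of these overlap counts are for peaks in the windows of the named genes. The overlap over all peaks of the lists was not computed. Whether the difference between the pools is particular to these windows was therefore not tested. Unequal depth of the pools was not tested, since read totals were not in the files used.

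The 300 base windows of the 9 main promoters and of the 41 peaks were searched on both strands for CAGCTG and CAGATG (E-boxes), AACAAT (Sox type), TGGGAA (Rbpj type), TCACACC (T-box type) and GCCNNNGGC (AP-2 type). Matches of different motifs may overlap. Among the promoters, CAGCTG and GCCNNNGGC were each present in Hopx and Draxin, while 15.6% and 19.2% of all coding promoters hold these letters. TGGGAA was present in Tfap2c, Eomes and Igfbpl1, against 24.9% of all coding promoters, and the other 3 motifs were in none of the 9. CAGATG was present in 11 of the 41 peak windows (26.8%) and CAGCTG in 9 (22.0%), against 23.0% and 18.8% of the windows of all replicated peaks. The other 4 motifs were present in 2 to 9 of the 41, in shares between 4.88% and 22.0%, against 3.8% to 26.8%. A match is a string of letters and not a site of binding.

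The other genes of these cells were taken from lists by role. Of 14 further radial glia genes, 14 had a replicated promoter peak, 14 in pool C and 13 in pool D. The strongest were Hes5 (24.1, in a peak that also holds a TSS of Pank4), Emx2 (21.7) and Hes1 (16.3); Hes1 and Hes5 are effectors of Notch signalling that keep stem cells undifferentiated, and Emx2 is a forebrain transcription factor. Most of these are also expressed by astrocytes, and 12 of 12 astrocyte genes were marked in each list. The strongest astrocyte genes were Slc1a2 (25.2), a glutamate transporter gene, Clu (19.4) and Glul (19.3), the glutamine synthetase gene, whose peak also holds a TSS of Teddm2. The part of astrocytes in the radial glia counts was not tested. Beside these counts, the share of all coding genes was 61.6% in the replicated list, 62.3% in pool C and 57.9% in pool D.

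Of 8 further genes of intermediate progenitors, 5 (62.5%) had a promoter peak in each of the replicated, pool C and pool D lists, near the share of all coding genes (61.6%, 62.3% and 57.9% in the same order). Btg2 (19.6), an antiproliferative gene, and Gadd45g (18.0), a stress response gene, were the strongest. Neurod4, Neurog1 and Neurog2, which encode proneural factors, had none, as Eomes and Tfap2c had none.

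Of 15 further genes of proliferation, 10 had a replicated promoter peak, 8 in pool C and 8 in pool D. The strongest were Cdk4 (17.1), a cyclin-dependent kinase, and Birc5 (16.4) and Kif11 (15.6), which act in chromosome segregation. Neither Birc5 nor Kif11 had a replicated peak in its body. Their promoter peaks lay within 1 kb of a TSS but outside the gene. Aurkb, Ccnb1 and Cdk1, which act at mitosis, had none, as Mki67 had none. Over all coding genes the share was 61.6% in the replicated list, 62.3% in pool C and 57.9% in pool D.

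Of 16 further genes of neuroblasts and newborn granule neurons, 15 had a promoter peak in each of the 3 lists, and Calb2, which encodes calretinin, had none. Ncam1 (20.0), a cell adhesion molecule, Nrep (18.9) and Neurod2 (18.8), a neuronal transcription factor, were the strongest. Many of them stay active in mature neurons, and all 12 genes of mature granule cells and 9 of 10 genes of CA pyramidal cells were marked in each list. The strongest were Rfx3 (41.3), Stxbp6 (19.5) and C1ql3 (17.3) for granule cells, and Nr3c2 (24.6), Grik4 (17.7) and Amigo2 (15.3, in a peak shared with Pced1b) for CA pyramidal cells, where Iyd had none. The part of mature neurons in these counts was not tested. The share of all coding genes with a promoter peak was 61.6% in the replicated list, 62.3% in pool C and 57.9% in pool D.

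Of 18 genes of niche signals and receptors, 15 had a promoter peak in each of the 3 lists. The receptor genes Igf1r (27.2) and Bmpr1a (21.5) and the Notch ligand Dll1 (15.3) were the strongest. Bmp4, Shh and Wnt3, which encode ligands as Dll1 does, had none. For all coding genes the share was 61.6% in the replicated list, 62.3% in pool C and 57.9% in pool D.

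As markers of other cells the tissue could hold, 10 of 12 endothelial and mural genes, 7 of 10 oligodendrocyte precursor genes and 4 of 8 ependymal and choroid plexus genes had a replicated promoter peak. In pool C these counts were 10, 9 and 4, and in pool D 7, 5 and 4. Over all coding genes the share with a promoter peak was 61.6% in the replicated list, 62.3% in pool C and 57.9% in pool D, and 7 of 10 and 4 of 8 are near it. The strongest were Slc2a1 (24.1), Pdgfrb (8.91) and Vtn (7.81, in a peak shared with Sarm1) for endothelial and mural genes, Tnr (21.8), Olig1 (8.47) and Vcan (6.48) for oligodendrocyte precursors, and Foxj1 (11.1), Ttr (6.09) and Dynlrb2 (5.01) for ependymal and choroid plexus cells. Those without a promoter peak in the replicated list included, in the same order, Abcb1a and Rgs5, then C1ql1, Lhfpl3 and Pdgfra, then Aqp1, Ccdc153 and Folr1. Of these, Lhfpl3 (2.87) and Pdgfra (2.81) had a promoter peak in pool C. The median signals of the marked ones were 5.73 for endothelial and mural genes, 6.13 for oligodendrocyte precursors and 5.55 for ependymal and choroid plexus genes in the replicated list, beside 4.97 for Nes, 6.01 for Dcx, 7.75 for Hopx and 10.5 for Mex3a. Mature granule cell genes had a median of 11.6, astrocyte genes of 12.3 and CA pyramidal genes of 10.4. The other medians were 9.37 for radial glia, 11.3 for intermediate progenitors, 9.08 for proliferation, 12.5 for neuroblasts and 11.3 for niche genes. They include any marked gene of the 9 that is in the list.

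**Figure D4:**
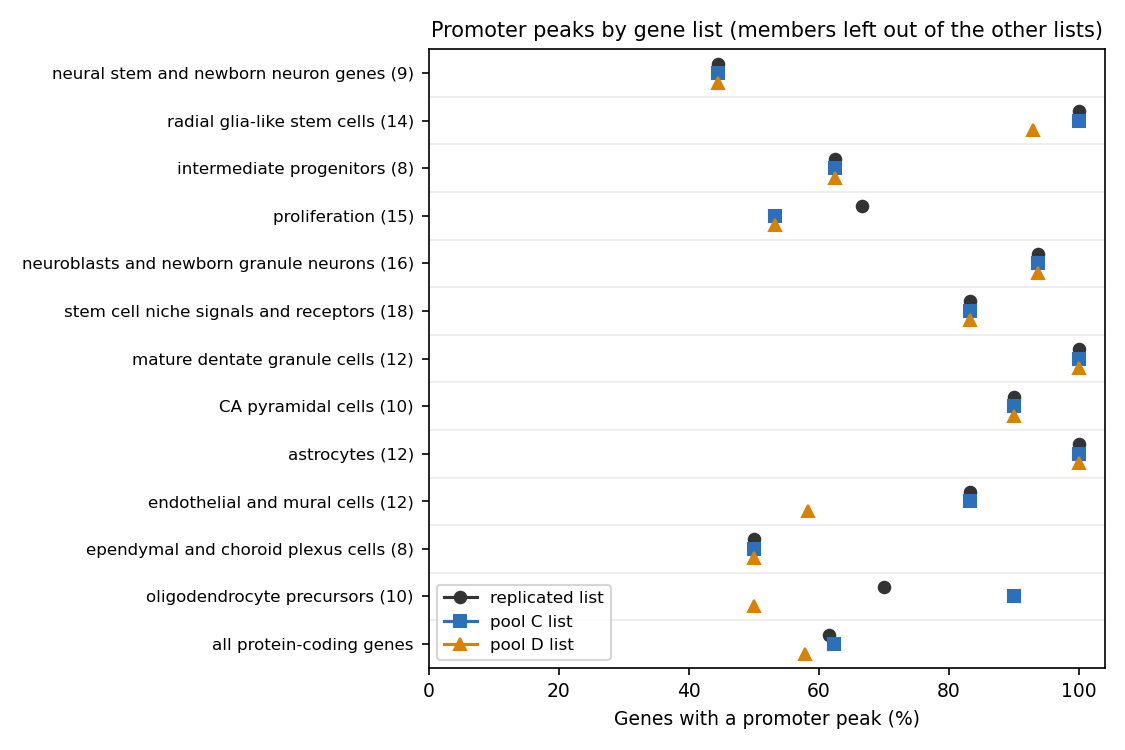
Share of genes with a promoter peak, in percent, for the 9 neural stem and newborn neuron genes (top) and for the other gene lists without them, with the number of genes in parentheses and all coding genes at the bottom. Symbols are the replicated list, the pool C list and the pool D list; the 9 genes stand at 44.4% in each, and radial glia, granule cell and astrocyte genes at 100% in the replicated list.

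The plot of promoter shares by gene list puts the 9 genes at 44.4%, with a Wilson 95% interval of 18.9% to 73.3%. The 9 genes were chosen by name and are not random draws, so this interval is no test against all coding genes. The lists overlap in some genes and were not tested against each other.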

How the data were processed

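Per the samples' descriptive text, the authors made 4 narrowPeak lists on mm10. One holds the peaks they call replicated, one was called on the 2 pools together, and each pool has its own, with technical replicates joined. The sources used here name neither an aligner nor a peak caller. The signal of each peak is the authors' deposited value, and no source states its scaling. A −log10 q of each peak was also deposited by the authors, and a value of 5 or more served as a stricter filter. Signals were compared by rank within a list. Read totals are not in these files, so depth is unknown.

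Genes and TSSs came from GENCODE M21 (21938 protein-coding genes) and sequences from the GRCm38 genome; no peak ended beyond its chromosome. A promoter peak lay within 1 kb of any annotated TSS, with an overlap of 1 bp. The main TSS is that of the transcript with the best APPRIS class. All 9 genes are named. Of other lists, the 3 strongest by replicated promoter signal and the alphabetically first 3 lacking a promoter peak are named, as are genes with promoters in the windows. Some items these rules take are not reported here. The genes and lists were chosen with earlier results of these data known. No tests were made: 1 group with 2 pools gives none, and genes are not replicates. The assignment of peaks to genes was tested on simulated peaks. Wilson intervals (95%) treat genes as random draws, which genes chosen by name are not. Tools were Python 3.11.15, numpy 2.4.6, pandas 2.3.3, scipy 1.17.1, pysam 0.24.0 and matplotlib 3.10.9. Alternatives were the stricter filter, peaks above a list's median signal, each other list, each pool left out, an overlap of 50% of the peak, TSS windows of 500 bp and 2.5 kb, the main TSS alone, and windows of 25 and 100 kb.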

Additional observations from a re-analysis of the deposited data

How the results depend on the processing

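Of 81 values computed under an alternative, 66 lay close to the main value (within 1.5 times for a count, within the SD of the pools for a length or share) and 15 moved. Closeness was partly built in, since 61 of the 62 replicated peaks were also in the list of both pools together. The SD also came from the 2 pools, whose lists were themselves alternatives. The 4 genes with a promoter peak were the same under every alternative but the main TSS alone, which lost Hopx and left 3. The 62 replicated peaks in the windows became 38 above the median signal, 37 with 25 kb beside the gene and 101 with 100 kb. The 41 away from other coding promoters became 19 and 27 under the first 2 of these. With 1 pool left out, the peaks away from other coding promoters ranged from 26 to 45 and the share of coding genes with a promoter peak from 57.9% to 62.3%. The bp covered in each window but that of Tfap2c, at 0, then ranged from 6532 to 20128 for Nes, 1673 to 8013 for Hopx, 952 to 1576 for Eomes, 9910 to 14188 for Mex3a, 3691 to 8559 for Mki67, 1061 to 2852 for Dcx, 508 to 608 for Igfbpl1 and 19680 to 27599 for Draxin, against 17586, 7493, 1747, 15005, 6523, 2736, 922 and 27904 in the replicated list. In these windows the low end was pool D, except for Igfbpl1, where it was pool C. The cause was not tested. No paired analysis was possible because the samples form 1 group and the lists allow no test. Depth is unknown and the pools number 2, so the absence of a peak, at Tfap2c for example, means only that none was detected in these lists.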
